A study of Mus musculus with 45 samples.

Results

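The genes described here mark the inhibitory interneurons of the hippocampus and the peptides that these cells release. The 10 genes were chosen by symbol and not by their values: Gad1, Gad2 and Slc32a1, Pvalb, Calb2 and Reln, and Sst, Vip, Npy and Cck. All 10 were found among the 15897 genes measured. RNA came from the hippocampus of 45 female C57Bl/6J mice in 8 groups. A+ mice carried one transgene construct with a chimeric mouse/human APP bearing the Swedish mutation and the human PS1dE9, both driven by the mouse prion protein promoter. T+ mice carried human Tau P301L driven by the CaMKII promoter, a promoter of excitatory forebrain neurons. A+T+ mice carried both, and AwTw mice were littermates without either transgene. STD was a chow with 5% fat and no cholesterol, and TWD was a Western-type diet with 21% fat, 0.15% cholesterol and 35% sucrose. All mice entered the diet at 7 months and were sacrificed at 13 months. Each of the 4 genotypes on TWD was represented by 6 mice, as were AwTw and AwT+ on STD, while A+Tw/STD had 5 mice and A+T+/STD 4. Of the 45 mice, the labels put 20 in batch 0 and 25 in batch 1, without saying what the batches were. Each mouse was 1 sample.

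Interneurons make GABA from glutamate through 2 decarboxylases, Gad1 (GAD67) and Gad2 (GAD65), and load it into vesicles through the transporter Slc32a1. They fall into classes that differ in the part of the pyramidal cell they contact: Pvalb cells fire fast onto the cell body, Sst cells contact the distal dendrites, Vip cells mainly inhibit other interneurons, and Cck cells contact the cell body or the dendrites. Npy is released by several of these classes, Calb2 is a calcium buffer of a further class, and Reln is a secreted protein of interneurons and Cajal-Retzius cells. Not every transcript of these genes is from an interneuron. Cck is also made by pyramidal cells, and Calb2 by mossy cells of the dentate gyrus and by granule cells that are still immature. In bulk tissue, fewer cells of a type and less RNA per cell cannot be told apart.

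The deposited values were on a log2-like scale after a variance-stabilizing transformation and removal of the batch means, so a difference of 1 is close to a doubling for well-expressed genes. The read depth of each mouse was not given by these values, and the error stated is the spread between mice. A gene is said to have been called, or to have risen or fallen, where its adjusted p in limma was under 0.05 after correction over all 15897 genes. As a check of the A+ label, App was higher in A+ than in Aw mice by 0.90 (95% interval 0.80 to 0.99) and Prnp, whose sequence the transgene shares, by 1.11 (1.02 to 1.2). Mapt differed by 0.06 between T+ and Tw mice (−0.04 to 0.17), and mouse Mapt does not check the T+ label because the transgene is human. All 10 markers of hippocampal subfields were measured, among them Prox1 of the granule cells at a mean of 9.76 and Wfs1 of CA1 at 11.23. Markers of the choroid plexus varied widely between mice, and Ttr ran from 7.49 to 18.08 over the 45 mice.

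The 4 peptide genes spanned almost the whole range of the set. Sst lies on chromosome 16 (23889573 to 23890958, minus strand, GRCm38 as annotated in GENCODE M21) and averaged 12.30 over the 45 mice, higher than 97.7% of all genes. Cck on chromosome 9 (121489824 to 121495694, minus strand) averaged 12.23 and Npy on chromosome 6 (49822710 to 49829507, plus strand) 9.95. Vip on chromosome 10 (5639218 to 5647617, plus strand) was the lowest of the 10 genes at 7.44, above 35.9% of all genes. Corrected for the length of the longest annotated transcript, the levels per kilobase ran from 12.77 for Sst through 12.56 for Cck and 10.78 for Npy to 6.10 for Vip on the log2 scale. By this measure Sst and Cck stood highest of the set, and Vip lowest after Reln. The values do not tell which transcript of a gene was expressed, so the order is approximate.

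The GABA genes sat between these. Gad1 on chromosome 2 (70553072 to 70602014, plus strand) had a level per kilobase of 9.83, Slc32a1 on chromosome 2 (158610767 to 158615748, plus strand) of 8.59 and Gad2 on chromosome 2 (22622205 to 22693874, plus strand) of 7.80, all on the log2 scale. Of the class markers, Pvalb on chromosome 15 (78191114 to 78206400, minus strand) had a level per kilobase of 9.46, Calb2 on chromosome 8 (110137502 to 110168210, minus strand) of 9.20 and Reln on chromosome 5 (21884454 to 22344702, minus strand) of 5.89. The 10 genes also differed in how much they varied between mice. Gad2 had an SD of 0.66 over the 45 mice, larger than that of 96.0% of all genes, whereas Slc32a1 had an SD of 0.22, larger than that of 29.2%.

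Somatostatin, VIP and CCK are textbook targets of cAMP signalling, and the sequence upstream of the start sites was searched for the response element. RefSeq holds a promoter window on GRCm38.p6 for 9 of the 10 genes, and Calb2 was not matched. The 250 bases before each start were searched on both strands for the cAMP response element TGACGTCA, for its shorter form TGACGTC, which every full element contains, and for the variant TGCGTCA. The matches, in capitals, are shown with the bases around them, 5′ to 3′ on the strand of the gene:
Sst: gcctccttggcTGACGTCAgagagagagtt
Vip: gatcactactgTGACGTCtttcggggagcc
Cck: tcctgctggacTGCGTCAgcactgggtaaa
These lie at chr16:23890874-23890903 (minus strand), chr10:5639128-5639157 (plus strand) and chr9:121495725-121495754 (minus strand), and the match begins 48 bases before the start of Sst, 79 before that of Vip and 49 before that of Cck. The Sst stretch falls in an untranslated exon of Sst in the GENCODE annotation, and the other 2 in no annotated feature. The full element was present in 1.55% of the 32851 promoter windows, the shorter form in 2.78% and the variant in 1.75%. Of the 9 genes searched, Sst held the full element, Sst and Vip the shorter form and Cck the variant. A match is a description of the letters only. The 3 genes did not move as one: Sst and Cck varied together across mice, and Vip varied against both (correlations are given with the other pairs of genes).

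**Figure D1:**
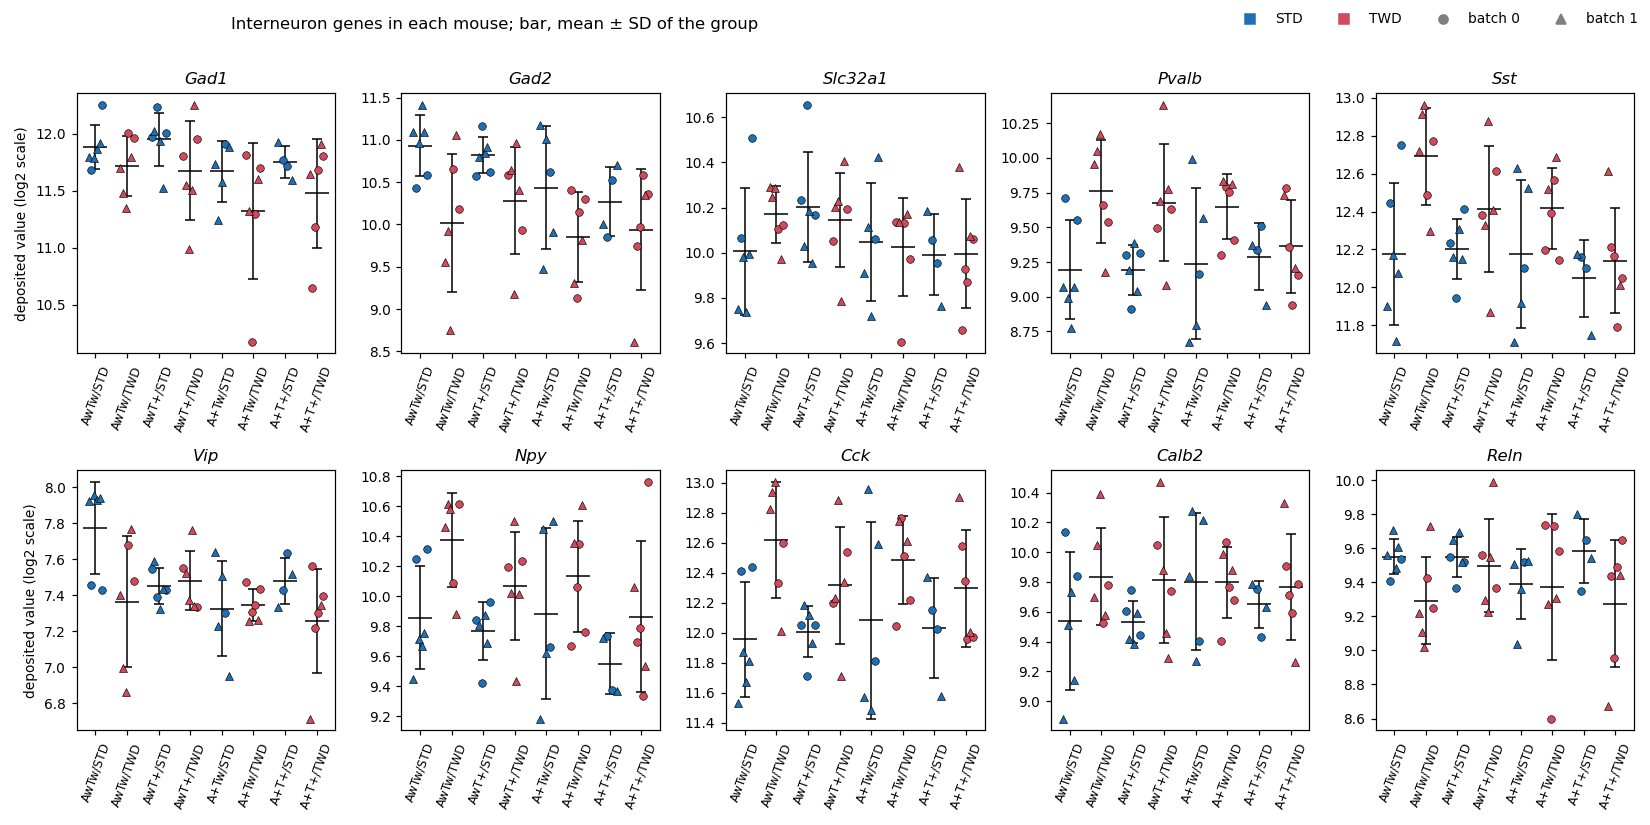
The value of each of the 10 genes on the log2 scale (y axis) in each mouse, by genotype and diet (x axis; blue STD, red TWD; circles batch 0, triangles batch 1), with the mean and SD of each group of 4 to 6 mice. Most groups overlap, though all AwTw/TWD mice lie above all A+T+/STD mice for Sst and Npy and all AwTw/STD and AwT+/STD mice above all A+Tw/TWD mice for Gad2. These pairs are named out of all pairs of groups and differ in both genotype and diet. How many of all genes separate in them was not counted. Vip stands high in the batch 1 mice of AwTw/STD, and 1 A+Tw/TWD mouse is lowest of all for Gad1 at 10.18.

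The first question of the design was what the diet does irrespective of genotype. Of the 10 genes, 6 were called: the mRNAs of the peptides Cck, Npy and Sst and of Pvalb were higher on TWD, and both GABA-synthesizing enzymes were lower. Over all genes 29.4% were called in this comparison, 2546 higher and 2132 lower, so a call was not rare. The absolute difference had a median of 0.27 over the 10 genes and of 0.14 over all genes.

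Cck ranged from 11.48 to 12.96 in the 21 STD mice with a median of 12.03, and from 11.71 to 13.00 in the 24 TWD mice with a median of 12.43. The ranges overlapped over most of their length, and the median was higher on TWD. The difference was 0.42 (95% interval 0.19 to 0.65, adjusted p = 0.0157). Pvalb had a median of 9.19 on STD (8.68 to 9.99) and of 9.67 on TWD (8.94 to 10.38), a difference of 0.40 (0.19 to 0.61, adjusted p = 0.0157). Npy had a median of 9.72 on STD (9.18 to 10.50) and of 10.07 on TWD (9.34 to 10.76), a difference of 0.35 (0.13 to 0.57, adjusted p = 0.0210). Sst had a median of 12.16 on STD (11.71 to 12.75) and of 12.40 on TWD (11.79 to 12.96), a difference of 0.27 (0.10 to 0.45, adjusted p = 0.0211). These 4 genes thus rose by 0.27 to 0.42.

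Gad2 moved the other way, with the largest absolute difference of the 10 genes. It ranged from 9.47 to 11.41 on STD with a median of 10.70, and from 8.62 to 11.06 on TWD with a median of 10.17. It fell by 0.62 on the log2 scale (95% interval −0.96 to −0.28, adjusted p = 0.0157). Gad1 ranged from 11.25 to 12.25 on STD with a median of 11.87, and from 10.18 to 12.25 on TWD with a median of 11.66. It fell by 0.27 (−0.48 to −0.06, adjusted p = 0.0458), which was the least secure of the 6 calls: it held in 18 of 45 fits with 1 mouse left out, and without A+Tw/TWD mouse 3 the difference was −0.22 with an adjusted p of 0.0536. The third GABA gene, the vesicular transporter Slc32a1, differed by 0.02 (−0.11 to 0.16, adjusted p = 0.811). Its median was 10.06 on STD and 10.13 on TWD.

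The remaining 3 genes were not called. Vip differed by −0.15 (−0.30 to −0.0012, adjusted p = 0.11), Reln by −0.16 (−0.32 to 0.0057, adjusted p = 0.126) and Calb2 by 0.18 (−0.020 to 0.38, adjusted p = 0.153). The intervals of these 3 genes reach differences as large as the estimates of called genes such as Sst and Gad1.

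**Figure D2:**
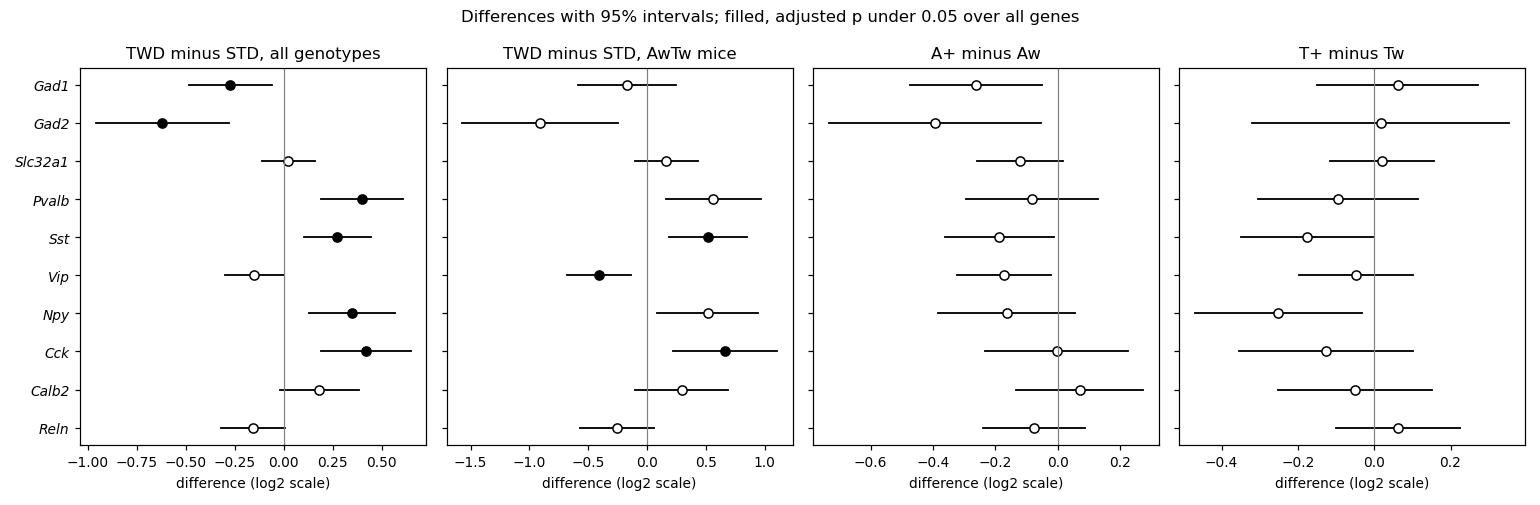
Differences on the log2 scale (x axis) with 95% intervals for the 10 genes (y axis), for TWD minus STD over all genotypes, TWD minus STD in AwTw mice, A+ minus Aw and T+ minus Tw; filled circles mark an adjusted p under 0.05. The filled circles are 6 in the first panel, 3 in the second and 0 in the other two.

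The diet difference was also taken within each batch. In the 25 mice of batch 1 alone, 5 of the 10 genes were called (40.9% of all genes): Gad2 at −0.92, Pvalb at 0.61, Cck at 0.58, Npy at 0.46 and Sst at 0.45. In the 20 mice of batch 0 alone, 0 of the 10 genes (0% of all genes) were called in limma, 1 gene (Cck) had an unadjusted p under 0.05, and the same genes stood at −0.29, 0.14, 0.27, 0.31 and 0.11. The sign was the same in both batches for these 5 genes and for Gad1, at −0.30 in batch 0 and −0.19 in batch 1. Slc32a1 changed sign between batches, at −0.16 in batch 0 and 0.20 in batch 1. A term for the difference between batches, added after the data were seen, called 0 of the 10 genes (0% of all genes), with an unadjusted p under 0.05 for Pvalb, Sst, Vip and Slc32a1. The smallest of these adjusted p-values was that of Slc32a1, at 0.125 for a difference of 0.40 between the batches.

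Short and long transcripts differed in the diet comparison over all genes. The 4 genes that rose all have a longest transcript under 1 kb: 566 bases for Npy, 721 for Sst, 799 for Cck and 977 for Pvalb. Gad1 has 3601 bases and Gad2 5744. Over all genes the median diet difference ran from 0.15 for the 961 genes under 1000 bases, of which 37.4% were called higher and 2.91% lower, through 0.13, 0.026 and −0.10, to −0.20 for the 930 genes of 8000 bases or more, of which 2.47% were called higher and 37.3% lower. Across the 15695 genes of known length, the diet difference correlated with log2 length at r = −0.43 and with GC content at r = 0.60, a description across genes that are not independent replicates. Reln, with 11699 bases, differed by −0.16 against −0.20 for its class and Slc32a1, with 2797 bases, by 0.02 against 0.026. Gad1, in the same class as Slc32a1, stood at −0.27, and Gad2 at −0.62 against −0.10.

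**Figure D3:**
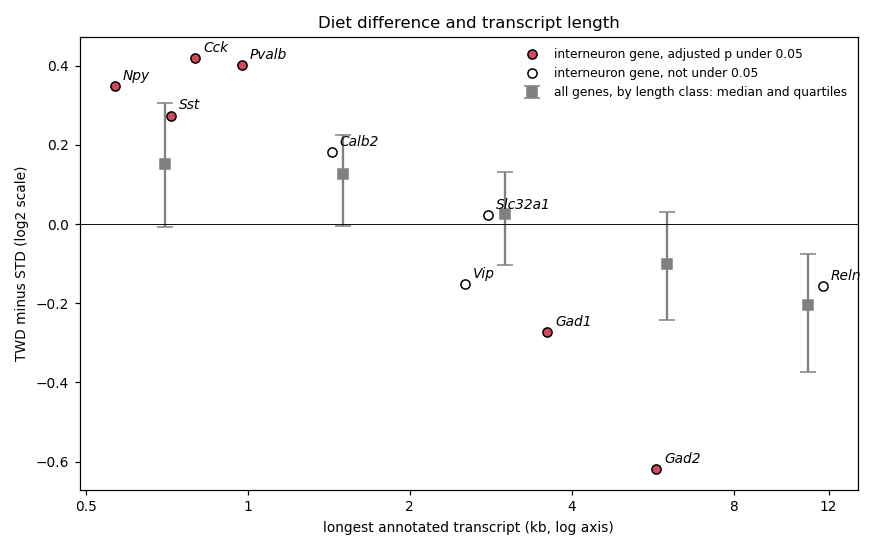
The diet difference on the log2 scale (y axis) against the length of the longest annotated transcript in kb (x axis, log) for the 10 genes, with the median and quartiles of all genes in 5 length classes (grey, each drawn near the middle of its class). Npy, Sst, Cck and Pvalb are short and higher on TWD, and Gad2 lies at −0.62, below the quartiles of its class.

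When a smooth trend on length and GC content was taken out of each mouse, 3 of the 10 genes were called (13.1% of all genes): Gad2 at −0.39, Pvalb at 0.30 and Cck at 0.20. The difference of Npy was then 0.16 (adjusted p = 0.148), that of Sst 0.06 (adjusted p = 0.340) and that of Gad1 −0.21 (adjusted p = 0.146). When the first component of the variation left within groups and batches was a covariate, 0 of the 10 genes were called (0% of all genes) and 2 had an unadjusted p under 0.05. That component took 41.3% of this variation over all genes, and its score was itself higher on TWD in batch 1, with a mean of 0.72 against −0.66 on STD in SD units, while in batch 0 the means were 0.07 and −0.11. The part of this component in the diet result was not tested.

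Most of the 10 genes varied either with or against Sst once the groups and batches had been taken out. Sst, Cck, Pvalb, Npy and Calb2 rose and fell together from mouse to mouse, and Gad2 and Vip, and less so Reln, ran against them. Slc32a1 went with Sst (r = 0.60) and against Vip (r = −0.66). Gad1 was little tied to Sst (r = −0.15), Npy (−0.06) and Vip (0.01). It went with Reln (0.57), Slc32a1 (0.50) and Gad2 (0.40), and more weakly against Pvalb (−0.37), Calb2 (−0.34) and Cck (−0.32). Of the 45 pairs of genes, 22 correlated positively and 23 negatively over the 45 mice, and 40 had an adjusted p under 0.05 by permutation, adjusted over the 45 pairs. The share of pairs of other genes that would pass was not counted. The first component alone took 41.3% of this variation over all genes, so the 40 pairs are not read as particular to interneuron genes. The closest pair was Pvalb and Cck, with Pearson's r = 0.93 and Spearman's rho = 0.91, followed by Sst and Cck at r = 0.92 and rho = 0.93. Their permutation p was 1e-05, the smallest that 100000 permutations can give (adjusted p = 2.81e-05). The r of Pvalb and Cck was 0.87 in batch 0, 0.95 in batch 1 and 0.91 without the 2 mice farthest from the median of Pvalb. For Sst and Cck it was 0.86, 0.94 and 0.91.

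The 2 GABA enzymes did not go together closely. Gad2 and Gad1 had r = 0.40 (rho = 0.28, permutation p = 0.00653 and 0.0593, adjusted p = 0.00852 and 0.0680), with 0.58 in batch 0, 0.31 in batch 1 and 0.35 without the 2 mice farthest from the median of Gad1. Gad2 ran against Cck at r = −0.90 (rho = −0.93, permutation p = 1e-05 and adjusted p = 2.81e-05 for both), with −0.88 in batch 0, −0.91 in batch 1 and −0.91 without the 2 farthest mice. Gad1 correlated best with Reln, at r = 0.57 (rho = 0.50, adjusted p = 0.000169 and 0.00110), with 0.60 in batch 0, 0.54 in batch 1 and 0.54 without the 2 farthest mice. Gad2 and Slc32a1, which act in the same pathway, had r = −0.40 (rho = −0.44, adjusted p = 0.00852 and 0.00404). The relation differed between batches, with r = 0.11 in batch 0 and −0.67 in batch 1, and stood at −0.32 without the 2 farthest mice.

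**Figure D4:**
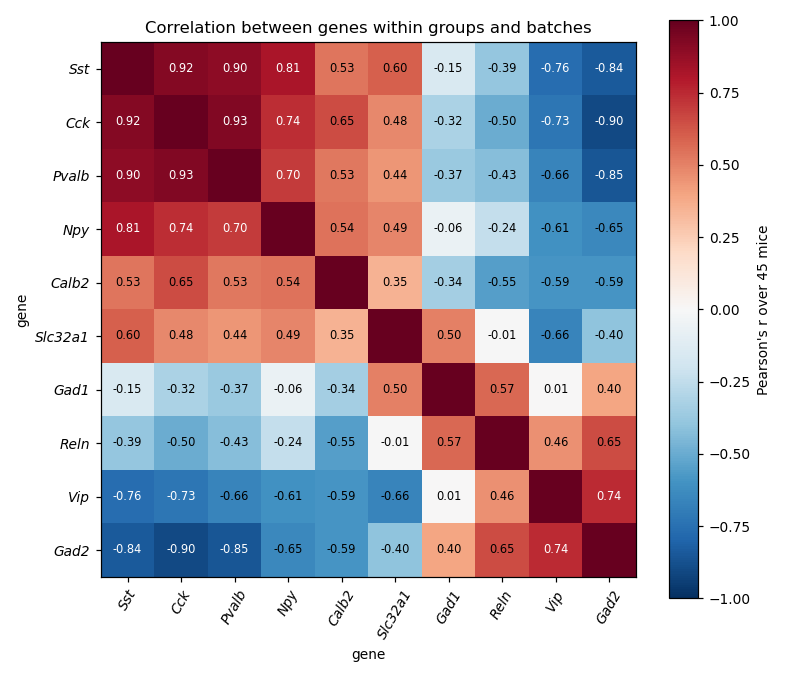
Pearson's r between the 10 genes (both axes) over the 45 mice after removal of group and batch means, from −1 (blue) to 1 (red). The 10 pairs among Sst, Cck, Pvalb, Npy and Calb2 lie between 0.53 and 0.93, and the 10 pairs of these genes with Vip and Gad2 between −0.90 and −0.59.

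The first component, computed for this purpose without these 10 genes, split them in the same way. Its r was 0.91 with Cck, 0.91 with Sst, 0.88 with Pvalb, 0.75 with Npy, 0.65 with Calb2 and 0.62 with Slc32a1. It was −0.95 with Gad2, −0.81 with Vip, −0.54 with Reln and −0.21 with Gad1. The component thus took 89.6% of the within-group variance of Gad2 and 4.51% of that of Gad1. Only 2.43% of all genes were tied to it more closely than Gad2, and 80.9% more closely than Gad1. Over all genes the r with the component correlated with GC content at 0.71 and with log2 length at −0.38. Vip, with 38.7% GC, has a higher GC content than 2.95% of genes, and Slc32a1, with 61.9%, than 98.1%.

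The genes whose pattern over the 45 mice was most like that of each gene were mostly no interneuron genes. Those nearest Gad1 included Cmip (r = 0.92) and Apba1 (0.91). Those nearest Gad2 were Slc2a13, Vcpip1 and Pdzd8, at 0.96 each. For Sst they were AI837181, Aes and Ptms at 0.95 each, for Pvalb Fbxo2, Ccdc85b and Arhgdig at 0.96 each, and for Cck Pdxp, Selenow and Pmm1 at 0.97 each. Npy was nearest Tubb2a, Chga and Sh3bgrl3 (0.87 to 0.88), Vip nearest Dmxl1, Micu3 and Csnk1g3 (0.85 each), Slc32a1 nearest Pdxk, Wdtc1 and Stac2 (0.86 to 0.88), Calb2 nearest Anp32b, Dbi and Trpc7 (0.79 to 0.87) and Reln nearest D430041D05Rik, Tspyl4 and Rspo2 (0.78 each). The r values are descriptions, with no p.

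Within single genotypes, 3 of the 10 genes were called for diet in AwTw mice, where 9.35% of all genes were called. Sst rose by 0.52 (95% interval 0.19 to 0.85), Cck rose by 0.66 (0.22 to 1.1) and Vip fell by 0.41 (−0.68 to −0.13), each at an adjusted p of 0.0498. Gad2 stood at −0.91 (−1.57 to −0.25, adjusted p = 0.0540), Pvalb at 0.56 (0.16 to 0.97, adjusted p = 0.0529) and Npy at 0.52 (0.08 to 0.95, adjusted p = 0.0750), so these 3 genes lay just outside the threshold. With 1 mouse left out, the count ran from 0 to 6 and was 0 in 32 of 45 fits. The share of all genes called in these fits is not given here.

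The mice of the 2 AwTw groups overlapped for every gene. Vip read 7.92, 7.46, 7.96, 7.93, 7.94 and 7.43 in AwTw/STD mice 1 to 6 and 7.40, 7.00, 6.86, 7.68, 7.77 and 7.48 in AwTw/TWD mice 1 to 6. In AwTw/STD the 4 mice of batch 1 lay at 7.92 to 7.96, above the 2 of batch 0 and above every other mouse of the study, the next being AwTw/TWD mouse 5 at 7.77. Cck read 11.53, 12.41, 11.87, 11.67, 11.81 and 12.44 in AwTw/STD and 12.82, 12.94, 13.00, 12.33, 12.01 and 12.60 in AwTw/TWD. Again the 2 mice of batch 0, numbers 2 and 6, stood apart from the other AwTw/STD mice, and 4 of the 6 AwTw/TWD mice lay above all of AwTw/STD. In batch 0 alone, with 2 mice a group, the AwTw difference was 0.13 for Vip, −0.03 for Pvalb, 0.04 for Cck and 0.03 for Sst, against −0.68, 0.86, 0.97 and 0.76 in batch 1 alone.

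Gad2 in these mice read 11.09, 10.43, 10.97, 11.41, 11.10 and 10.58 in AwTw/STD and 9.55, 9.92, 8.76, 10.65, 11.06 and 10.18 in AwTw/TWD. Of the AwTw/TWD mice, 4 lay below all of AwTw/STD, and mouse 5 was as high as the AwTw/STD mice of batch 1. The same mouse 5 was lowest of its group for Sst, Cck, Npy and Pvalb and highest for Vip.

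In the mice with a transgene, limma called 0 of the 10 genes for diet whether the genotype was AwT+ (0% of all genes), A+Tw (0%) or A+T+ (0%), and 1, 0 and 0 of the 10 had an unadjusted p under 0.05. Gad2 stood at −0.51 (−1.18 to 0.15) in AwT+, at −0.65 (−1.36 to 0.07) in A+Tw and at −0.35 (−1.1 to 0.39) in A+T+ mice. Cck stood at 0.30 (−0.14 to 0.75), 0.42 (−0.06 to 0.89) and 0.27 (−0.23 to 0.77). Pvalb stood at 0.48 (0.08 to 0.89, unadjusted p = 0.0212) in AwT+, at 0.41 (−0.02 to 0.85) in A+Tw and at 0.07 (−0.38 to 0.53) in A+T+ mice. These values had the sign seen in AwTw mice, and whether they differed from it was tested by the interactions. The interaction of genotype and diet called 0 of the 10 genes for AwT+ (0% of all genes), A+Tw (0%) and A+T+ (0%), with 1, 1 and 0 at an unadjusted p under 0.05. Both of these were Vip, at 0.44 (0.06 to 0.83, adjusted p = 0.780) for AwT+ and at 0.41 (0.01 to 0.82, adjusted p = 0.919) for A+Tw.

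The second question was what the APP/PS1 transgene does. In A+ against Aw mice, 0 of the 10 genes were called in limma, where 3.69% of all genes were called, and 4 of the 10 had an unadjusted p under 0.05. The point estimate was below 0 for 9 of the 10 genes, with a median of −0.14 against −0.02 over all genes. Gad2 stood at −0.39 (95% interval −0.73 to −0.06, adjusted p = 0.248), Gad1 at −0.26 (−0.48 to −0.05, adjusted p = 0.204), Sst at −0.19 (−0.36 to −0.01, adjusted p = 0.293) and Vip at −0.17 (−0.32 to −0.02, adjusted p = 0.253). The other uncalled genes ran from −0.16 (−0.38 to 0.06) for Npy to 0.07 (−0.13 to 0.27) for Calb2.

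By mouse, Sst ran from 11.72 to 12.96 in the 24 Aw mice with a median of 12.36, and from 11.71 to 12.69 in the 21 A+ mice with a median of 12.16. Gad1 ran from 10.99 to 12.25 in Aw mice with a median of 11.84, and from 10.18 to 11.93 in A+ mice with a median of 11.68. Both genes overlapped between Aw and A+ over most of their range, and the A+ mice were lower at the centre and at the top. Gad1 was lowest in A+Tw/TWD mouse 3, and without that mouse the A+ difference was −0.21 (adjusted p = 0.248).

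The A+ calls depended on the setting. With the length and GC trend removed, Sst was −0.28 (SE 0.05, adjusted p = 1.92e-05) and Slc32a1 −0.17 (adjusted p = 0.0365), and 2 of the 10 genes were called (6.12% of all genes). With the first component as a covariate, 5 of the 10 were called (6.77% of all genes), all lower in A+: Sst at −0.29 (SE 0.04, adjusted p = 1.63e-07), Npy at −0.27 (adjusted p = 0.0164), Pvalb at −0.20 (adjusted p = 0.0120), Gad2 at −0.19 (adjusted p = 0.0429) and Slc32a1 at −0.17 (adjusted p = 0.0365). All 10 estimates were below 0 in both of these fits. The share of all genes below 0 in them was not counted, and the 10 genes were correlated, so their signs are not independent. For Sst the SE in the fit of the deposited values was 0.09. The score of the first component differed between diets, as given above, and also between A+ and Aw groups on STD, with means of −0.20 in A+Tw and 0.08 in A+T+ against −0.91 in AwTw and −0.56 in AwT+ in SD units. Its part in these calls was not tested. In batch 0 alone Sst was −0.32 (SE 0.09, adjusted p = 0.0969) and in batch 1 alone −0.03 (SE 0.13, adjusted p = 0.886), with 0 of the 10 genes called in each (1.6% and 2.1% of all genes). Batch 0 held 1 of the 5 A+Tw/STD mice. The length and GC setting was chosen after the data were seen.

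**Figure D5:**
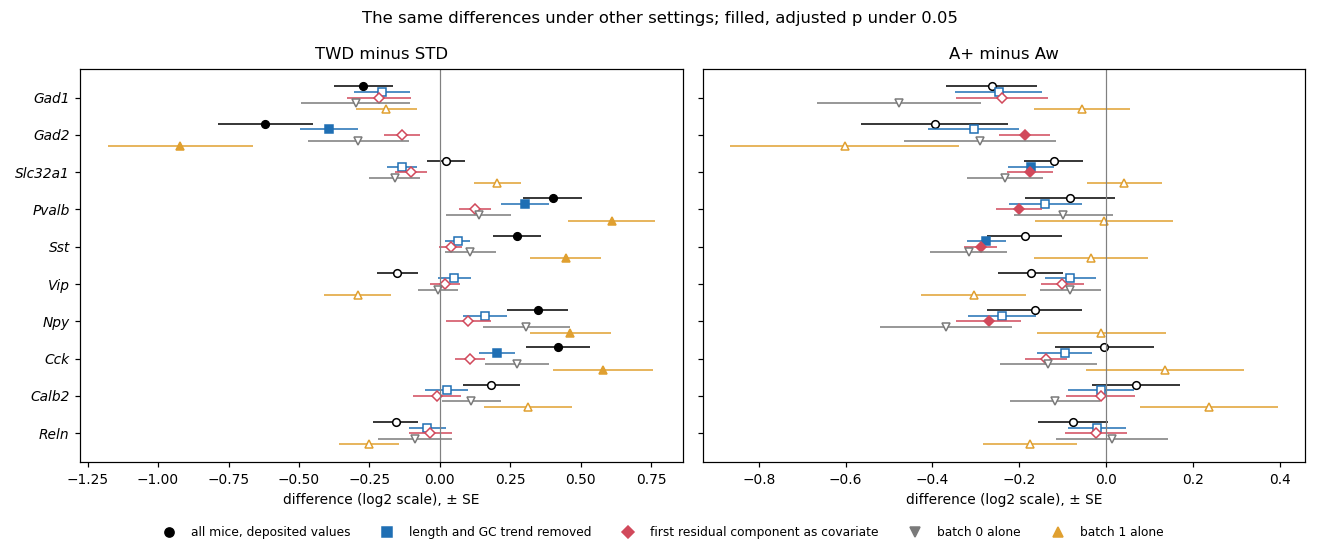
The diet difference and the A+ difference (x axes, log2 scale, with SE) of the 10 genes (y axis) in the fit of all mice and in 4 other fits; filled symbols mark an adjusted p under 0.05. In the A+ panel Sst is open at −0.19 with the deposited values and filled at −0.28 and −0.29 with the length and GC trend or the first component taken into account, while in the diet panel 0 symbols of the latter fit are filled.

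Against AwTw on the same diet, 0 of the 10 genes were called in limma in any of the 6 genotype comparisons: on STD that of AwT+ (0% of all genes), A+Tw (0.925%) and A+T+ (1.32%), and on TWD that of AwT+ (0%), A+Tw (0.824%) and A+T+ (0.73%). Of the 60 gene tests, 4 had an unadjusted p under 0.05. On STD these were Vip in AwT+, at −0.33 (−0.60 to −0.05), and in A+Tw, at −0.44 (−0.73 to −0.15, adjusted p = 0.241). Both comparisons share the AwTw/STD mice, whose Vip stood high in batch 1. On TWD they were Sst, at −0.56 (−0.90 to −0.22, adjusted p = 0.148), and Npy, at −0.52 (−0.96 to −0.08, adjusted p = 0.532), in A+T+ mice. Sst had its highest group mean in AwTw/TWD, at 12.69 ± 0.26 (SD, n = 6), and its lowest in A+T+/STD, at 12.05 ± 0.20 (SD, n = 4), with A+T+/TWD at 12.14 ± 0.28 (SD, n = 6). Of the 45 fits with 1 mouse left out, Sst passed the threshold in A+T+/TWD in the 1 without A+T+/TWD mouse 1, at −0.68 (adjusted p = 0.0397).

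The 8 group means of a gene can be put in order. Of the 7 steps between neighbours in the order of group means, only 1 exceeded the larger of the 2 SDs for Sst (AwTw/TWD above A+Tw/TWD), for Vip (AwTw/STD above AwT+/TWD) and for Npy (AwT+/STD above A+T+/STD), and 0 did for the other 7 genes. The span of the group means ran from 0.21 for Slc32a1, between 9.99 in A+T+/STD and 10.20 in AwT+/STD, to 1.08 for Gad2, between 9.85 in A+Tw/TWD and 10.93 in AwTw/STD. It was 0.82 for Npy, 0.65 for Sst and 0.63 for Gad1, against a median SD within groups of 0.35, 0.27 and 0.27.

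The third question was what Tau P301L does. In T+ against Tw mice, 0 of the 10 genes were called in limma (0.0126% of all genes), and 2 had an unadjusted p under 0.05. Npy stood at −0.25 (−0.47 to −0.03, adjusted p = 0.977) and Sst at −0.18 (−0.35 to −0.0026, adjusted p = 0.994). Npy had a median of 10.09 (9.18 to 10.62) in the 23 Tw mice and of 9.80 (9.34 to 10.76) in the 22 T+ mice, so the ranges overlapped over most of their length. The other 8 genes stood between −0.13 for Cck and 0.06 for Gad1 and Reln. For Gad2 the interval was −0.32 to 0.35, so differences within it in either direction are compatible with these values.

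Other genes of the same cells were read from a fixed list of 30, of which 29 were measured. On TWD, 2 rose and 8 fell, where 29.4% of all genes were called in this comparison and 0% in batch 0 alone, so the share was near that of all genes. Among the lower ones were the synaptic ligand Nxph1 at −0.54 (adjusted p = 0.0157), the potassium channel Kcnc2 of fast-spiking cells at −0.47 (adjusted p = 0.0157), the neuregulin receptor Erbb4 at −0.83 (adjusted p = 0.0159) and the cannabinoid receptor Cnr1, carried by Cck cells, at −0.72 (adjusted p = 0.0159). The higher ones were Lamp5 at 0.23 (adjusted p = 0.0157) and the peptide Cort, a relative of Sst, at 0.30 (adjusted p = 0.0466). Of the transcription factors of the lineage, Lhx6 (0.08), Dlx1 (−0.23), Dlx2 (−0.07), Dlx5 (0.12) and Dlx6 (0.05), were not called. In A+ mice, 1 of the 29 rose and 1 fell (3.69% of all genes called), with a median of −0.13. The one that fell was Crhbp, the binding protein of corticotropin-releasing hormone found in Sst cells, at −0.25 (−0.37 to −0.13, adjusted p = 0.00642). In T+ mice 0 of the 29 were called and 3 had an unadjusted p under 0.05.

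Of 8 genes of GABA uptake, breakdown and chloride transport, 4 fell and 0 rose on TWD (29.4% of all genes called in either direction, and 0% in batch 0 alone): the glutamine transporter Slc38a1 at −0.26 (adjusted p = 0.0157), the GABA transaminase Abat at −0.24 (adjusted p = 0.0209), Aldh5a1, the next enzyme of that route, at −0.23 (adjusted p = 0.0302), and the chloride importer Slc12a2 at −0.56 (adjusted p = 0.0304). In A+ mice 2 of the 8 fell (3.69% of all genes called), among them Slc6a11 (GAT3), the GABA transporter of astrocytes, at −0.24 (−0.37 to −0.11, adjusted p = 0.0177). In T+ mice 0 of the 8 were called, and 0 had an unadjusted p under 0.05.

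Of 13 receptors and signal transducers of the peptides and of reelin measured, 1 fell on TWD (29.4% of all genes called in either direction). It was the reelin receptor Vldlr, at −0.50 (adjusted p = 0.0157). The Npy receptors Npy1r and Npy2r stood at −0.26 and −0.17 (adjusted p = 0.0564 and 0.0658), and the reelin adaptor Dab1 at −0.18 (adjusted p = 0.0593). In A+ and T+ mice 0 of the 13 were called (3.69% and 0.0126% of all genes), with 1 and 1 at an unadjusted p under 0.05. The one in A+ mice was the somatostatin receptor Sstr4, at −0.23 (−0.43 to −0.04, adjusted p = 0.216). Of 17 other peptide and secretory granule genes measured, 5 rose on TWD and 0 fell, a share near the 29.4% called over all genes. Among the higher ones were Tac2 at 0.29 (adjusted p = 0.0159), Chgb at 0.20 (adjusted p = 0.0167), Pdyn at 0.27 (adjusted p = 0.0217) and Cort. In A+ mice 1 of the 17 rose (3.69% of all genes called), the growth factor Igf1, at 0.99 (0.84 to 1.14, adjusted p = 2.01e-14). In T+ mice 0 of the 17 were called and 6 had an unadjusted p under 0.05.

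Markers of other cells moved with the same groups. Over all genes 29.4% were called for diet, 3.69% in A+ mice and 0.0126% in T+ mice. Of 10 microglia markers, 8 rose in A+ mice, with a median of 0.78, and their mean level lay at 9.57 to 9.73 in the 4 A+ groups against 8.36 to 8.63 in the 4 Aw groups. On TWD 4 of the 10 rose and 1 fell, with a median of 0.13. Of 10 choroid plexus markers, 0 were called for diet, A+ or T+, with 1, 7 and 9 at an unadjusted p under 0.05 and medians of −0.52, 0.87 and 0.91. With their level as a covariate, 6 of the 10 interneuron genes were called for diet and 0 for A+ or T+, the same counts as without it. Over all 15897 genes the calls for diet, A+ and T+ were then 5373, 424 and 4, against 4678, 586 and 2 without it. The A+ values still moved: the genes at an unadjusted p under 0.05 went from 4 to 1. The smallest adjusted p of the 10 genes for A+ in limma went from 0.204 to 0.534. Of 10 markers of excitatory neurons, 4 rose and 1 fell on TWD and 0 were called in A+ mice, where their median was −0.15, close to the −0.14 of the 10 interneuron genes. Of 8 astrocyte markers, 2 rose and 3 fell on TWD with a median of −0.19, and 1 rose in A+ mice. Of 8 oligodendrocyte markers, 3 rose and 0 fell on TWD with a median of 0.15, and of 8 endothelial markers 2 rose and 1 fell. Cajal-Retzius cells, the other source of Reln, were represented by 4 measured markers. On TWD 1 fell, Ndnf at −0.51 (adjusted p = 0.0185), which is also on the list of other interneuron genes. In A+ or T+ mice 0 were called, with 3 and 1 at an unadjusted p under 0.05. Against AwTw on STD, Trp73 was called in A+T+ mice, at 0.89 (adjusted p = 0.0138), where 1.32% of all genes were called. The other markers of the list were not called there and differed in sign, with Ebf3 at 0.39, Cacna2d2 at 0.21 and Ndnf at −0.47. On TWD the same comparison gave 0.35 for Trp73 (adjusted p = 0.685). The part of these cell types in the results for the 10 genes was not tested, apart from the choroid plexus covariate.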

How the data were processed

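RNA sequencing of poly(A) libraries from hippocampus was measured in 45 mice, grouped by the genotype and diet of their labels. The authors trimmed reads (Trimmomatic 0.38), removed rRNA and mitochondrial reads (Bowtie2 2.2.3), quantified transcripts (kallisto 0.44.0), summed them per gene, dropped genes with few reads, transformed the counts with the variance-stabilizing method of DESeq2 1.22.2 and removed batch with limma 3.38.3. The deposited values are therefore log2-like, and each gene has the same mean in both batches. Depth is unknown from them, and 0 columns were left unused.

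Here, limma 3.58.1 in R 4.3.3 was fitted to all 15897 genes with a mean trend and batch as a covariate. The diet, A+ and T+ differences came from a model of the 4 genotypes plus diet plus batch, with A+ and T+ as averages over 2 genotypes each, and a fit of the 8 groups gave comparisons within a diet or genotype and the interactions. P-values were two-sided and adjusted by Benjamini-Hochberg across the whole table, and the threshold was 0.05. The method was tested on simulated data with noise drawn independently for each gene. That test does not cover variation shared between genes, such as the first component. Symbols, lengths and GC content came from GENCODE M21, with length and GC known for 98.7% of genes, and promoter windows came from RefSeq (GRCm38.p6). The first component is that of the residuals after group and batch without the 10 genes, its loadings applied to each mouse. As a covariate it came from the residuals of the model it entered, over all genes. The length and GC trend used splines with 4 degrees of freedom in each mouse. Correlations used residuals and 100000 permutations, in Python 3.11.15 with scipy 1.17.1.

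All 10 genes were named, with the 3 genes most correlated with each. From each further list up to 4 genes with the smallest p were named, the called ones first. Cnr1, Cort and the lineage factors among the other interneuron genes, and Prox1, Wfs1 and Ttr, were named outside this rule, after their values were seen. Some genes that the rule names are not reported here. App, Prnp, Mapt and Camk2a (−0.06 in T+ mice) served to check the labels. The 10 genes and all lists were chosen with earlier results of these data known. The alternatives tried were each batch alone, no batch covariate, quantile normalization, genes above the 25th percentile of the mean, no mean trend, the first component as a covariate, only the groups compared and each mouse left out. Added after the data were seen were the length and GC trend, the choroid plexus level, 160 copied genes counted once and the batch difference.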

Additional observations from a re-analysis of the deposited data

Results flagged for a closer look

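In 80 tests of a single mouse against its group (10 genes in 8 groups of 4 to 6 mice) 2 values stood apart by Dixon's criterion, where about 4 are expected by chance at 1 in 20. Both belong to A+Tw/TWD mouse 3, of batch 0. Gad1 was 10.18 in this mouse against 11.30 to 11.81 in the other 5 mice of the group. Slc32a1 was 9.61 against 9.97 to 10.17. This mouse also had the lowest Reln of the study, at 8.60, which did not meet the criterion. Without it, the diet difference of Gad1 was −0.22 (adjusted p = 0.0536) in place of −0.27 (adjusted p = 0.0458), its T+ difference was −0.011 in place of 0.06, and the T+ difference of Slc32a1 was −0.0069 in place of 0.02.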

How the results depend on the processing

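The T+ and interaction counts were 0 under each alternative run for them, which did not include the fit of only the groups compared. For diet, the count of 6 was 0 in batch 0 alone (0% of all genes) and 0 with the first component as a covariate (0%). It was 3 with the length and GC trend removed (13.1%), and 5 to 6 with 1 mouse left out. For A+, the count of 0 was 5 with the component (6.77% of all genes) and 2 with the trend removed (6.12%). For genotype within a diet, the count of 0 was 3 and 2 in these fits and 0 to 1 with 1 mouse left out. The 3 and 2 calls were in A+T+ mice, where 237 of all genes on STD and 291 on TWD were called with the component. With the trend removed the numbers over all genes were 305 and 191. For diet within a genotype, the count of 3 was 5 without the batch covariate, 0 in batch 0 alone, 6 in batch 1 alone, 0 after quantile normalization, 5 with genes above the 25th percentile, 0 without the mean trend, 0 with the component, 0 with the trend removed, 5 with the choroid plexus covariate, 0 with only the groups compared, and 0 to 6 with 1 mouse left out. Over all genes, 1487 of 15897 were called for diet in AwTw mice with all mice and the batch covariate. The number was 2490 without the batch covariate, 0 in batch 0 alone and 3982 in batch 1 alone. It was 2911 with the choroid plexus covariate, 2853 of 11922 with genes above the 25th percentile, and 1 with only the groups compared. It was 0 after quantile normalization, without the mean trend, with the component and with the trend removed. The cause of these changes was not tested. No paired analysis was possible because the replicate numbers only name the mice.

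Of 740 differences of single genes under these alternatives 643 kept their direction and side of the threshold, 32 lost a call, 16 gained one and 49 changed sign. In batch 0 alone the changed signs were, for diet, Slc32a1 −0.16, for A+ Calb2 −0.12 and Reln 0.013, for T+ Slc32a1 −0.020, for diet in AwTw mice Gad1 0.019, Slc32a1 −0.17, Pvalb −0.034, Vip 0.13 and Calb2 −0.33, in AwT+ Vip −0.012, in A+Tw Calb2 0.32, and in A+T+ Slc32a1 −0.13, Pvalb −0.11 and Sst −0.078. In batch 1 alone they were, for A+, Slc32a1 0.042 and Cck 0.14, and for diet in AwT+ Slc32a1 0.10, in A+Tw Slc32a1 0.11, Vip −0.071 and Calb2 0.034, and in A+T+ Gad1 0.012. With the component they were, for diet, Slc32a1 −0.10, Vip 0.018 and Calb2 −0.0095, for A+ Calb2 −0.013, and for diet in AwTw Gad2 0.0082, Slc32a1 −0.066 and Calb2 −0.074, in AwT+ Reln 0.054, in A+Tw Reln 0.094, and in A+T+ Slc32a1 −0.040 and Pvalb −0.017. With the trend removed they were, for diet, Slc32a1 −0.13 and Vip 0.052, for A+ Calb2 −0.012, for T+ Gad2 −0.015, and for diet in AwTw Slc32a1 −0.16 and Vip 0.023, in AwT+ Reln 0.10, in A+Tw Reln 0.051, and in A+T+ Slc32a1 −0.077. After quantile normalization they were Cck 0.031 for A+, and for diet Calb2 0.017 in A+Tw and Slc32a1 −0.015 in A+T+. With the choroid plexus covariate they were Cck 0.019 for A+ and Slc32a1 −0.013 for diet in A+T+. With only the groups compared they were, for diet in A+Tw, Slc32a1 0.031, Vip −0.011 and Calb2 0.14.

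With 1 mouse left out, 15 differences changed sign in at least 1 fit. They ran from −0.059 to 0.034 for Cck in A+, and in T+ from −0.011 to 0.11 for Gad1, −0.043 to 0.091 for Gad2 and −0.0069 to 0.044 for Slc32a1. For diet in AwT+ they ran from −0.11 to 0.032 for Slc32a1, −0.022 to 0.074 for Vip and −0.14 to 0.0053 for Reln. In A+Tw they ran from −0.11 to 0.061 for Slc32a1, −0.085 to 0.079 for Vip, −0.13 to 0.11 for Calb2 and −0.11 to 0.11 for Reln. In A+T+ they ran from −0.088 to 0.069 for Slc32a1, −0.042 to 0.16 for Pvalb, −0.022 to 0.16 for Sst and −0.011 to 0.23 for Calb2. The depth of each mouse is unknown, and 4 to 6 mice a group limit what could be called.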
